A study of Mus musculus with 76 samples.

Results

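The clustered histone genes were defined as the mouse genes whose symbol begins with Hist1h, Hist2h, Hist3h or Hist4h. The annotation holds 70 such symbols, and 57 of them were matched to the 37980 genes of the table by Ensembl identifier. The other 13 were not analysed here. The 57 members comprise 6 H1, 18 H2A, 14 H2B, 7 H3 and 12 H4 genes. In GRCm38, 45 lie on chromosome 13, 9 on chromosome 3 and 3 on chromosome 11, and 54 are protein coding and 3 are pseudogenes. Above 0 in at least 1 library were 55 members. A level of at least 1 FPKM (fragment counts normalised for the length of the transcript and the size of the library) in at least 2 libraries, which the test required, was reached by 50. The rule uses names, so no measured value chose the members.

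RNA was measured in 75 distinct libraries, each from 1000 sorted cells of C57BL/6 mice, in 24 groups of 2 to 4 libraries. Natural cells from bone marrow were early T progenitors (BM ETP, 3 libraries), hematopoietic stem cells (HSC, 4), multipotent progenitors (MPP, 4), B cell precursors at the pro/pre-B stage (3), and mature myeloid (2), B (4) and T cells (3). Natural cells from the thymus were early T progenitors (Thy ETP, 2), double negative thymocytes DN1 (3), DN2 (3), DN3 (2) and DN4 (3), double positive thymocytes (DP, 4) and single positive thymocytes (CD4 SP, 3, and CD8 SP, 3). Induced cells descend from pro/pre-B cells that were infected with a virus carrying Hoxb5, a homeobox transcription factor gene, and transplanted into sublethally irradiated recipients. They were sorted from marrow (BM iETP, 2 libraries) or thymus (Thy iETP, 3; iDN1, 4; iDN2, 2; iDN3, 3; iDN4, 4; iDP, 3; iCD4 SP, 4; iCD8 SP, 4). Sublethal irradiation leaves the host some blood cells of its own. Neither age, sex nor the promoter in the virus is named in the labels, and separate animals are not stated for the libraries of a group. The p-values therefore measure the spread between these libraries, which may be technical.

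Histones are the proteins around which DNA is wound. H2A, H2B, H3 and H4 build the nucleosome core and H1 binds the linker DNA between nucleosomes. Most members are replication-dependent: they are transcribed in S phase, when new DNA needs packaging, and their mRNAs end in a conserved stem-loop bound by SLBP in place of a poly(A) tail. Some of them also give polyadenylated mRNA, for example in cells that have stopped dividing. The labels name polyA RNA as the measured molecule, so a transcript without a tail may be captured poorly, and levels given here are those of the RNA captured. In thymocyte development, DN4 cells and early DP cells divide rapidly, while most small DP and mature cells rest.

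Depth was placed from the smallest steps between low values, at 0.978 to 11.3 fragments per FPKM and kilobase, with a median of 4.31. A transcript of 500 bases at 10 FPKM thus rests on 4.89 to 56.4 fragments, and the mature myeloid libraries are the shallowest. Members also resemble each other in sequence. Of the 50 tested members, 24 shared at least 50% of their stretches of 50 bases with transcripts of other genes, and the values of such near-copies are uncertain because shared reads could be split between them. Marker genes went against some labels. In BM iETP 8 B cell markers summed to 7641 to 8030 FPKM against 68.7 to 86.9 in natural BM ETP. Cd3d, Cd3e, Cd3g and Bcl11b were listed at 0 in BM iETP. The list of 9 T cell markers, however, summed to 37.4 to 40.8 FPKM in BM iETP against 5.66 to 10.03 in natural BM ETP. In natural BM ETP 8 myeloid markers summed to 18479 to 30493 FPKM against 1211 to 1709 in BM iETP. In natural DN1 6 natural killer cell markers summed to 2325 to 2504 FPKM against 40.0 to 187 in iDN1. Replicate 4 of the pro/pre-B group stood apart, with 4616 FPKM over the myeloid markers against 51.2 and 29.4 in the other 2 libraries. Hoxb5 itself had 0.0662 to 3.47 FPKM in the induced libraries and 0 to 0.404 in the natural libraries of the same stages. Xist, expressed from the inactive X chromosome, ran from 2.44 to 16.3 FPKM in the induced libraries, with a median of 8.65. In natural libraries of the same 9 stages it ran from 0 to 7.95, with a median of 0.253, so where a stage's natural cells lack Xist, sex and induction cannot be told apart. Rps3a2, a retroposed ribosomal copy named after its values were seen, was listed at 0 to 1.42 FPKM in natural DN1 and CD8 SP and at 26.4 to 212 FPKM in all other groups, and its part in the results on these 6 libraries was not tested.

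The stem-loop is shown first because it decides how a histone mRNA ends. It was found in at least 1 annotated transcript of 38 of 57 members (66.7%) and in 0.078% of all 141767 transcripts of the annotation (GENCODE vM21). Of the 57 members, 19 had transcripts that all ended within 100 bases after it, 19 had a transcript running more than 100 bases past it, and 19 had annotated transcripts without it. The last set includes pseudogenes and short transcripts, such as Hist1h4k with 312 bases and Hist1h2ak with 393. The annotation may leave out the end of these, so the gene itself need not lack a stem-loop. The 16 bases of the stem-loop are in capitals below, in the DNA letters of the transcript, with up to 5 bases on either side.
Hist1h2bj: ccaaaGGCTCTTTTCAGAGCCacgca
Hist1h3c: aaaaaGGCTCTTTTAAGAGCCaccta
Hist1h4i: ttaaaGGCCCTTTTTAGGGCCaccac
Hist1h1c: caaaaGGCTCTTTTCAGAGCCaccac
Hist3h2a: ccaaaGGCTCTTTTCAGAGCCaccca
These genes differ in the length of transcript that follows the stem-loop. The annotated transcript of Hist1h2bj (H2B) goes on for 23 bases, that of Hist1h3c (H3) for 74 and that of Hist1h4i (H4) for 330. The transcript of Hist1h1c, a linker histone gene, goes on for 840 bases and that of Hist3h2a (H2A) for 1643. Hist1h2bc (H2B), the member with the highest mean, has a spliced annotated transcript of 1156 bases that lacks the stem-loop.

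Upstream sequences are shown because neighbouring H2A and H2B genes share them. The RefSeq promoter table (GRCm38.p6) held 50 members with 51 windows from 250 bases before to 50 bases after the start. Hist1h2bc, Hist1h3a and Hist2h2be had no entry. The motifs searched, on both strands, were the octamer ATTTGCAT, the TATA motif TATAAA and CCAAT, none of which contains another. Only the 250 bases before the start were searched. The octamer was in 23.5% of the member windows and in 1.6% of all 32851 windows, and it was found in 7 of 16 H2A and 5 of 12 H2B windows and in 0 of 23 others. Head-to-head windows overlap, and the same octamer site can count for both genes, as for Hist1h2ae and Hist1h2bg. TATAAA was in 49.0% of member windows against 12.4% of all, and CCAAT in 80.4% against 33.9%. CCAAT was in 6 of 6 H1, 16 of 16 H2A and 12 of 12 H2B windows but in 3 of 11 H4 windows. The last 120 bases before the start follow, 5′ to 3′ on the strand of the gene, with these motifs in capitals.
Hist1h2bj, chr13:22043078-22043197, plus strand: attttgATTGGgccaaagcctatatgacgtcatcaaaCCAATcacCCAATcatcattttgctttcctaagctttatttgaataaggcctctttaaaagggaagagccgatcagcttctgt
Hist1h2ag, chr13:22042950-22043069, minus strand: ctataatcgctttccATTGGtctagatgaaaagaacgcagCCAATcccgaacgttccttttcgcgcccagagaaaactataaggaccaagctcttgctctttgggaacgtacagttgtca
Hist1h2bg, chr13:23571280-23571399, plus strand: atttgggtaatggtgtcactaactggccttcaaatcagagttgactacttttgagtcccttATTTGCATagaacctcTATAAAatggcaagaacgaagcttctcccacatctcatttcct
Hist3h2a, chr11:58954565-58954684, plus strand: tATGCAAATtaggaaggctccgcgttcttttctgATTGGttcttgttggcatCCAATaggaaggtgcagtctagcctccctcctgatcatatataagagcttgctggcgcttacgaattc
Hist1h1c, chr13:23738687-23738806, plus strand: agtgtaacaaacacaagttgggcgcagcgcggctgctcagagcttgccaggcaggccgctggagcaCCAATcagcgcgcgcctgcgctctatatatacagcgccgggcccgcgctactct
Hist1h4i, chr13:22041363-22041482, minus strand: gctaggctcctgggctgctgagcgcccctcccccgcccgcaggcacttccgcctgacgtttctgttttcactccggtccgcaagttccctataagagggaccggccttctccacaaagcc
A match describes letters in the window and is not evidence of a bound factor. The first 2 sequences lie head to head between Hist1h2bj and Hist1h2ag, whose transcripts start 269 bases apart. All 8 pairs of coding members that start within 1000 bases of each other on opposite strands consist of 1 H2A and 1 H2B gene. In the 5 pairs with both means at 1 FPKM or more, Spearman's rho over the 24 group means had a median of 0.61, from 0.35 for Hist2h2ac with Hist2h2be to 0.85 for Hist1h2ag with Hist1h2bj. Over all 595 pairs of members at that level the median was 0.35, from -0.31 to 0.92. These coefficients describe groups that share libraries and depth.

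Summed over the members, clustered histone RNA was highest in natural DP thymocytes, at 753 ± 78.8 FPKM (SD, n = 4). Pro/pre-B cells followed at 602 ± 47.2 (n = 3), natural BM ETP at 546 ± 100.2 (n = 3) and HSC at 443 ± 74.6 (n = 4). Mature T cells (159 ± 38.7, n = 3), natural DN1 (158 ± 12.7, n = 3) and mature myeloid cells (53.9 ± 7.10, n = 2) were the lowest. The 3 members of highest mean over groups were Hist1h2bc, Hist1h1c and Hist1h4i. In HSC they had means of 148.8, 147.9 and 22.9 FPKM, so the rank of HSC rests mostly on Hist1h2bc and Hist1h1c. Without these 3 members HSC stood at 123.7 FPKM and BM ETP at 157.4, below mature B cells at 164.1, while DP stood at 544.9. With each library scaled to the same total, DP stayed first at 752.3 and mature myeloid cells last at 31.1 FPKM, mature T cells were at 117.9, and iCD4 SP at 464.1 passed HSC at 449.3. In bulk libraries fewer expressing cells and less RNA per cell cannot be told apart. Of the 23 pairs of neighbours in this order, libraries overlapped in 19. They did not overlap between DP (lowest library 641) and pro/pre-B cells (highest 640), or between natural DN1 and mature myeloid cells. The other 2 pairs without overlap were CD8 SP over iDN4 and Thy iETP over BM iETP. The 9 induced groups spanned 202 ± 9.23 FPKM in iDN1 (n = 4) to 416 ± 37.3 in iCD4 SP (n = 4), a narrower range than in the natural groups.

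**Figure D1:**
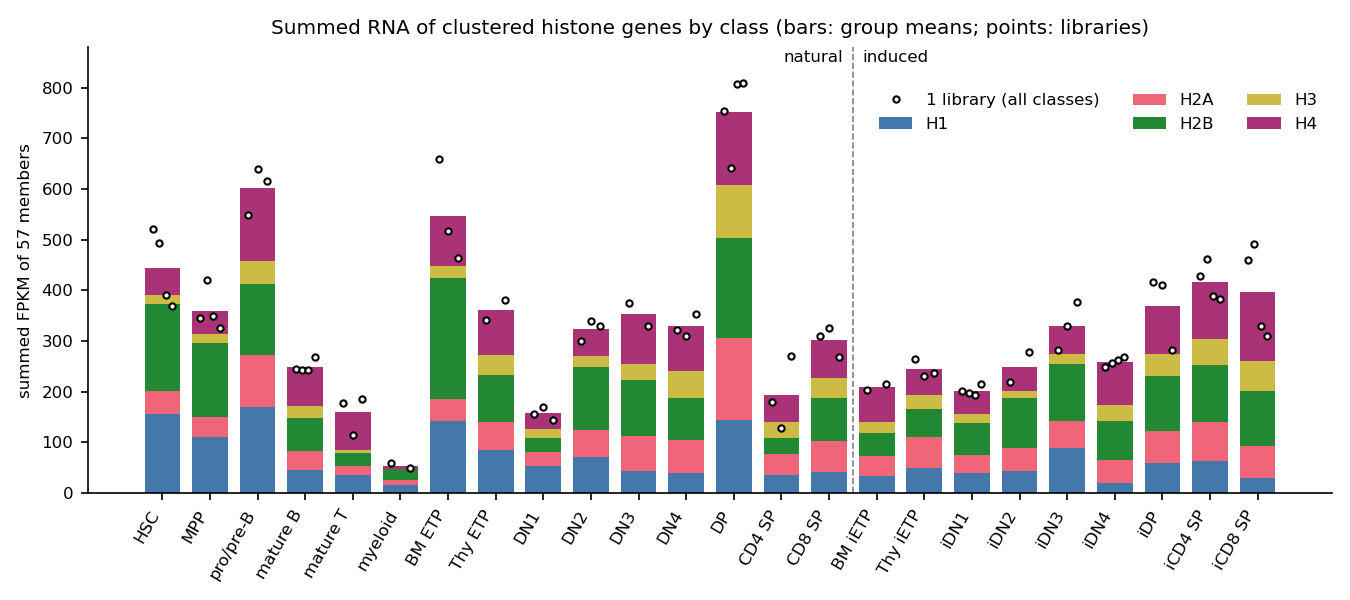
Summed FPKM of the 57 members (vertical axis) in each sample group, with bars for group means split by histone class and a point for each library. DP stands at 753 FPKM and mature myeloid cells at 53.9, and the induced groups lie between 202 and 416.

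Among linker histones, Hist1h1c was the most abundant, with a mean over groups of 45.1 FPKM, and was above 0 in all 75 libraries. Its values in HSC were 165, 144, 157 and 126 FPKM, in natural BM ETP 130, 123 and 113, and in iCD8 SP 10.8, 14.4, 9.77 and 11.7. Its highest mean was in HSC, at 147.9 FPKM. High values were not limited to stem and progenitor cells: its mean in DP was 71.3 FPKM. Values in pro/pre-B and iDN3 cells, given below, were high as well. Its lowest means were in mature myeloid, iCD8 SP, BM iETP, iDN4 and DN4 cells. Hist1h1b, the replicative linker histone H1.5, showed another distribution. In pro/pre-B cells it had 28.0, 34.2 and 31.2 FPKM and in DP 18.4, 24.3, 35.5 and 34.0, while HSC had 0.598, 0.455, 0.677 and 3.49. Hist1h1a likewise had its highest mean in pro/pre-B cells (32.7 FPKM), and Hist1h1t, a linker histone known from the testis, reached 1 FPKM in no library.

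Core histone genes divided in the same way. For H2B, Hist1h2bc had 177, 176, 128 and 115 FPKM in HSC and 255, 194 and 160 in natural BM ETP, but 6.48 and 3.31 in mature myeloid cells. Hist1h2bj instead had 3.85, 2.94, 1.44 and 1.02 FPKM in HSC, 25.6, 58.4, 32.5 and 28.1 in DP, and 52.8, 53.7, 31.5 and 31.1 in iCD8 SP. Groups rich in one were therefore poor in the other at the stem cell end, and both were present in DP. For H2A, Hist3h2a had 48.1, 71.5, 81.6 and 70.1 FPKM in DP, and every other library lay at 43.3 or below. For H3, Hist1h3c was listed at 0 in all libraries of MPP, mature T, mature B and mature myeloid cells and had 34.2, 17.9, 31.1 and 34.1 FPKM in DP. Hist1h3a, encoded nearby, had 53.2, 20.6, 14.8 and 57.6 FPKM in DP and was listed at 0 in both myeloid libraries.

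For H4, Hist1h4i had a mean over groups of 42.4 FPKM and was above 0 in 74 libraries. It had 80.9, 72.0 and 81.1 FPKM in pro/pre-B cells and 112, 95.5, 63.1 and 72.5 in iCD8 SP, against 18.8, 6.74, 12.7 and 8.64 in mature B cells. Hist1h4c and Hist1h4d had their highest means in mature lymphocytes, at 29.1 FPKM in mature B cells and 25.1 in mature T cells. Their means in DP were 24.2 and 23.9 FPKM. Hist1h4c had 18.6, 39.9, 30.2 and 27.7 FPKM in mature B cells and 37.8, 11.5 and 17.2 in mature T cells. Hist1h4d had in mature T cells 30.8, 12.9 and 31.6 FPKM. In DP the library of replicate 2 departed from the others for both genes. Hist1h4c was listed at 0 there against 29.5, 36.9 and 30.5, and Hist1h4d had 2.77 against 26.4, 37.4 and 29.3 FPKM. Each of the other DP libraries lay above the gene's mature lymphocyte mean, so that ranking depends on replicate 2.

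**Figure D2:**
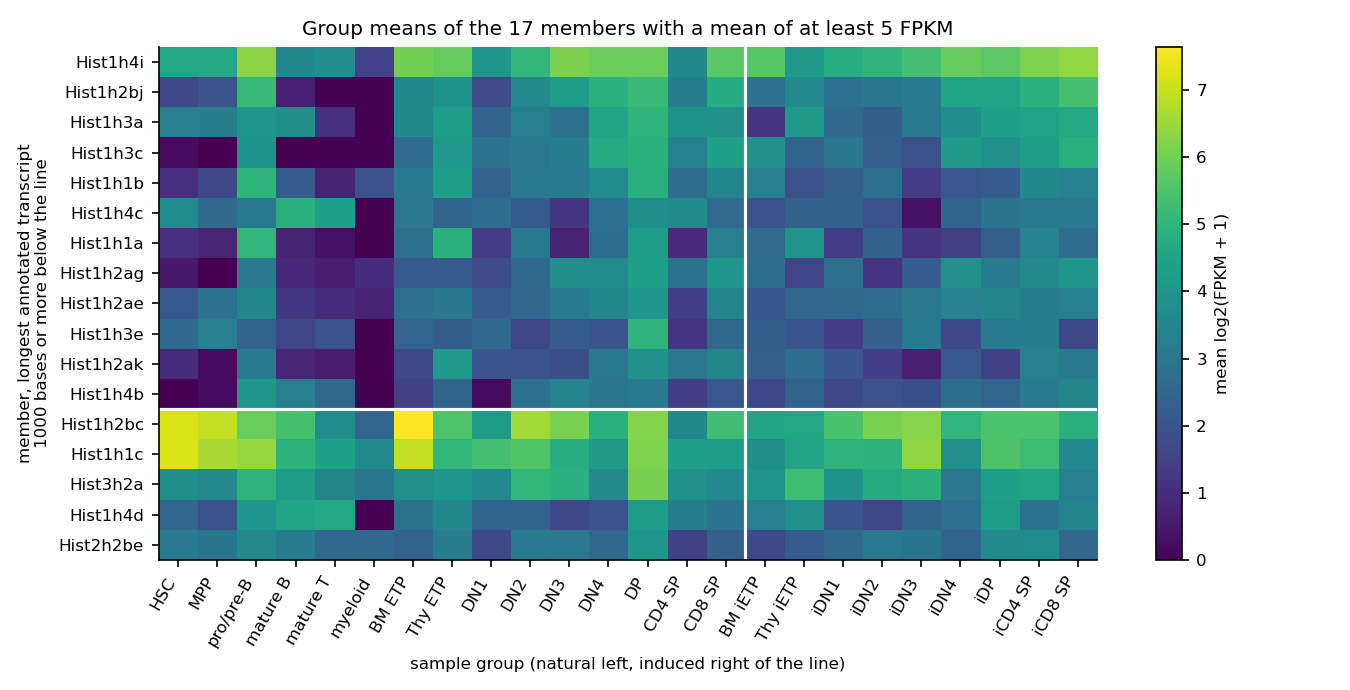
Mean log2(FPKM + 1) of the 17 members with a mean of at least 5 FPKM (rows) in the 24 groups (columns), natural groups left and induced groups right of the vertical line. Rows below the horizontal line have an annotated transcript of 1000 bases or more, and of these Hist1h2bc and Hist1h1c are bright in HSC and natural BM ETP, where Hist1h2bj and Hist1h3c are dim.

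The members were set against 22 genes of DNA replication, such as Mcm2 to Mcm7, Pcna and Rrm2, by the mean log2(FPKM + 1) of that list. Over 24 group means, Spearman's rho was 0.85 for Hist1h3c, 0.81 for Hist1h4i, 0.80 for Hist1h2bj and 0.75 for Hist1h2ag. It was -0.32 for Hist1h1c, 0.02 for Hist1h2bc and 0.01 for Hist3h2a. A split by transcript length, chosen after the values were seen and therefore not tested, separated most of these. The 5 members above 5 FPKM with an annotated transcript of 1000 bases or more had rho from -0.32 to 0.03, and the 12 shorter ones had a median of 0.70. The exceptions among the shorter ones were Hist1h4c at -0.15 and Hist1h3e at 0.07. All points share the libraries and their depth, and these coefficients are given as a description. Counts of called members by transcript length, given below, are likewise a description. A longer transcript holds more fragments at the same FPKM, and the part of this in such counts was not tested. For the summed level, rho over 24 groups was 0.40 with the replication list, 0.36 with 18 mitosis genes and 0.20 with depth. It was larger, at 0.57, with 10 genes for replacement histones, which are not tied to replication. Pearson's r was 0.37, 0.26, 0.44 and 0.56 in the same order.

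**Figure D3:**
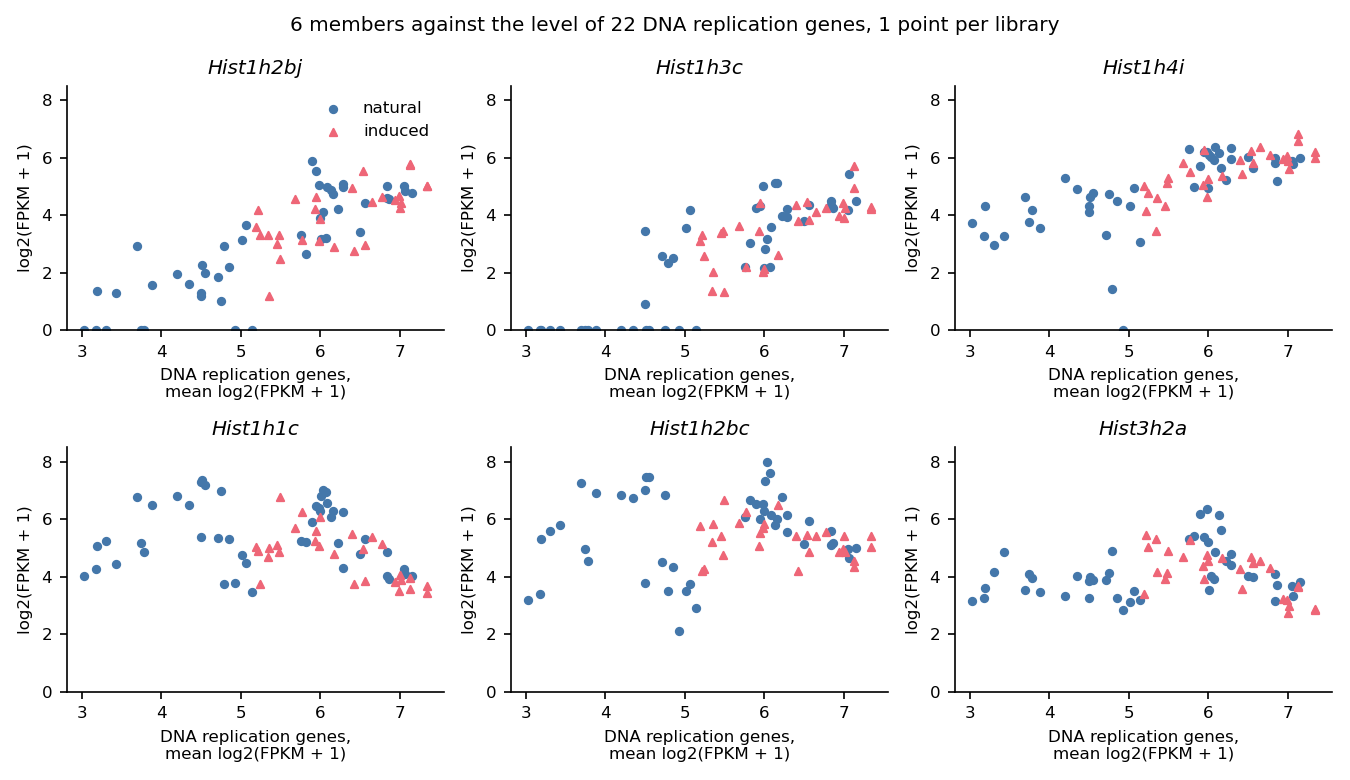
log2(FPKM + 1) of 6 members (vertical axes) against the mean log2(FPKM + 1) of 22 DNA replication genes (horizontal axes), 1 point per library, circles natural and triangles induced. Hist1h2bj, Hist1h3c and Hist1h4i rise to the right, whereas Hist1h1c, Hist1h2bc and Hist3h2a do not.

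Between HSC and MPP, the first step of hematopoiesis, 0 of 50 members passed limma's test at an adjusted p of 0.05, and 2 had an unadjusted p under 0.05. Of all 17416 genes tested, 8.13% passed, 3.12% up and 5.01% down. Hist1h1c had 89.2, 108, 110 and 90.2 FPKM in MPP, below each HSC library, a difference of -0.57 ± 0.23 (SE, adjusted p = 0.144) on the log2(FPKM + 1) scale that all differences here use. Without HSC replicate 2 or without MPP replicate 2 the count was 1.

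From pro/pre-B to mature B cells, which leave the cell cycle, 17 members fell and 2 rose, against 25.0% of all genes called in either direction and 13.4% called down. Hist1h2bj fell from 30.5, 45.7 and 30.9 FPKM to 1.55, 0, 0 and 1.47, by 4.51 ± 0.43 (SE, adjusted p = 3.03e-13). Hist1h1a fell by 4.28 ± 0.51 (adjusted p = 4.82e-10), and Hist1h3c, with 14.4, 18.8 and 11.0 FPKM in pro/pre-B cells, was listed at 0 in all 4 mature B libraries. Among members with long transcripts, Hist1h2ac (H2A) fell by 3.64 ± 0.38 (adjusted p = 8.35e-12). In these 4 genes, picked from the called members, the libraries of both groups did not overlap. The share of all genes without overlap was not counted, here or below. Hist2h2ab and Hist2h3c2 rose, but their means in mature B cells were 1.42 and 1.29 FPKM. Of the list genes, 19 of 22 for DNA replication and 18 of 18 for mitosis fell, and so did Slbp, whose product binds the stem-loop, by 1.54 ± 0.18 (adjusted p = 4.36e-10). In the same comparison 4 of 8 myeloid markers fell, from sums of 29.4 to 4616 FPKM to at most 0.74. Without pro/pre-B replicate 4, 18 members fell and 1 rose, and with only these groups in the fit 9 were called.

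At the step from DN3 to DN4, which follows selection for the T cell receptor beta chain, 2 members rose and 3 fell (6.72% of all genes called, 3.53% up and 3.20% down). Hist1h2bc had 69.9 and 66.8 FPKM in DN3 and 31.0, 29.9 and 24.0 in DN4, and fell by 1.25 ± 0.35 (adjusted p = 0.0163). Hist3h2a fell by 1.26 ± 0.37 (adjusted p = 0.0245), and Hist2h3c1, an H3 gene whose sequence is wholly shared with other genes, fell by 2.65 ± 0.69 (adjusted p = 0.00973). All 3 have an annotated transcript of 1000 bases or more. Those that rose, Hist1h1a and Hist1h4k, have shorter ones, and Hist1h1a went from 1.89 and 0 to 6.36, 7.43 and 3.83 FPKM. Meanwhile 7 of 22 replication genes and 12 of 18 mitosis genes rose, and none fell in either list. The count rested on few libraries: it was 1 without DN3 replicate 2, 3 without DN4 replicate 1 or 2, 2 without DN4 replicate 3 and 0 with only these groups in the fit. Without DN3 replicate 2 the adjusted p was 0.473 for Hist3h2a, 0.102 for Hist1h2bc, 0.194 for Hist2h3c1 and 0.556 for Hist1h1a. Further calls were lost for Hist1h2bc without DN3 replicate 1 (0.0808) or DN4 replicate 3 (0.0728), for Hist3h2a without DN4 replicate 2 (0.0511) or 3 (0.104) and for Hist1h1a without DN4 replicate 1 (0.0928) or 2 (0.118).

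In the induced cells, from iDN3 to iDN4, 3 members rose and 4 fell (9.03% of all genes called, 3.92% up and 5.11% down). Hist1h1c had 66.2, 75.3 and 108 FPKM in iDN3 and 13.0, 15.9, 14.0 and 10.4 in iDN4, and fell by 2.54 ± 0.25 (adjusted p = 1.23e-11). Hist3h2a fell from 22.1, 38.0 and 28.9 to 8.41, 5.61, 6.93 and 8.08 FPKM, by 1.88 ± 0.31 (adjusted p = 1.06e-05). Hist1h2ac fell by 1.59 ± 0.38 (adjusted p = 0.00281) and Hist1h2bc by 1.22 ± 0.29 (adjusted p = 0.00264). In the other direction, Hist1h3c rose from 3.34, 3.64 and 1.54 to 14.8, 14.0, 18.1 and 20.3 FPKM, by 2.25 ± 0.41 (adjusted p = 8.04e-05). The head-to-head pair Hist1h2ag and Hist1h2bj rose by 1.60 ± 0.51 (adjusted p = 0.0328) and 1.29 ± 0.43 (adjusted p = 0.0442). The 4 that fell have transcripts of 1000 bases or more and the 3 that rose have shorter ones. At this step 21 of 22 replication genes, 15 of 18 mitosis genes and Slbp (by 1.29 ± 0.18, adjusted p = 4.56e-07) rose.

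The call of Hist1h2bc at that step was lost without iDN3 replicate 3 (adjusted p = 0.0552), which also left 4 called members. That of Hist1h2ac was lost at a pseudocount of 0.1 (0.074). Those of Hist1h2ag and Hist1h2bj were lost without most libraries left out in turn: Hist1h2ag without iDN3 replicate 1 (0.292) or 3 (0.0571) or iDN4 replicate 1 (0.0577), 3 (0.111) or 4 (0.0741), and Hist1h2bj without iDN3 replicate 2 (0.111) or 3 (0.344) or any iDN4 library (0.0577 to 0.102). Hist1h1c, Hist3h2a and Hist1h3c kept their calls in all 14 alternatives run for each.

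From DN4 to DP, 14 members rose and 1 fell (24.6% of all genes called, 11.8% up). Hist3h2a rose from 12.9, 11.7 and 8.95 FPKM to 48.1, 71.5, 81.6 and 70.1, by 2.49 ± 0.31 (adjusted p = 3.09e-09). Hist1h2ac rose from 0.774, 1.48 and 0.425 to 10.1, 8.05, 16.1 and 7.15 FPKM, by 2.56 ± 0.38 (adjusted p = 2.75e-07), and Hist1h1c rose by 2.02 ± 0.25 (adjusted p = 2.15e-09). The largest fitted rise was that of Hist1h3e, a short H3 gene, by 3.02 ± 0.60 (adjusted p = 6.65e-05). Of 12 tested members with transcripts of 1000 bases or more, 9 rose, and of 38 shorter ones 5 rose and 1 fell. Hist1h2bj (0.26 ± 0.43, adjusted p = 0.83), Hist1h3c (0.17 ± 0.41, adjusted p = 0.942) and Hist1h4i (0.05 ± 0.46, adjusted p = 1) did not pass. Their link to the replication list was read from these same groups. The replication genes went the other way, with 15 of 22 falling, and Slbp fell by 0.79 ± 0.18 (adjusted p = 0.000576), while 3 of 18 mitosis genes rose. Among genes for replacement histones, which are not tied to replication, 5 of 10 rose, H2afx by 0.83 ± 0.27 (adjusted p = 0.0154). With only these groups in the fit, 6 members were called.

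In induced cells, 4 of 50 members (8%) rose from iDN4 to iDP, near the share of all genes (19.6% called, 9.20% up). All 4 had long transcripts, by the split chosen after the values were seen. Hist1h1c rose from 13.0, 15.9, 14.0 and 10.4 FPKM to 46.9, 51.4 and 37.2, by 1.69 ± 0.25 (adjusted p = 2.43e-07). Hist1h2ac rose by 1.82 ± 0.38 (adjusted p = 0.0002) and Hist3h2a by 1.31 ± 0.31 (adjusted p = 0.00102). The fourth, Hist1h1d, is named after its values were seen and rose by 1.32 ± 0.33 (adjusted p = 0.00209). All 4 also rose from DN4 to DP, and 15 of 22 replication genes fell in each step. The difference between the natural and induced steps was called for 0 of 50 members (1.10% of all genes), with an unadjusted p under 0.05 for 6, and for 1 without DN4 replicate 1. Without iDP replicate 3, 7 members were called from iDN4 to iDP.

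On leaving the DP stage for CD4 SP, 26 members fell and 0 rose (26.7% of all genes called, 13.5% down). The fall covered all classes: 4 of 5 tested H1, 8 of 15 H2A, 7 of 11 H2B, 3 of 7 H3 and 4 of 12 H4 genes. Hist1h2ac went from 10.1, 8.05, 16.1 and 7.15 FPKM to 0.0856, 0.127 and 0.223, and fell by 3.25 ± 0.38 (adjusted p = 3.63e-10). Hist1h2bc fell from 62.9, 92.6, 90.9 and 54.4 to 10.4, 10.3 and 12.3 FPKM, by 2.63 ± 0.29 (adjusted p = 6.55e-11). Short-transcript members fell too, Hist1h4i by 2.36 ± 0.46 (adjusted p = 4.43e-05) and Hist1h3e by 3.86 ± 0.60 (adjusted p = 4.94e-07). At the same step 16 of 22 replication genes, 18 of 18 mitosis genes and Slbp (by 1.14 ± 0.18, adjusted p = 1.01e-06) fell. The 3 CD4 SP libraries differed in summed level, at 180, 128 and 271 FPKM. Markers of other cells rose with the step: 4 of 6 for natural killer cells, from sums of 0.264 to 8.28 to 83.2 to 177 FPKM, and 4 of 7 for dendritic cells, from 3.80 to 26.5 to 10.2 to 239 FPKM with the highest in replicate 2. Without that library 20 members fell, and the part of these markers in the result was not tested. With only these groups in the fit 7 members were called, and Hist1h3e was not among them (0.0785).

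Toward CD8 SP, 16 members fell and 0 rose (23.9% of all genes called, 13.2% down), and 12 of them also fell toward CD4 SP, a comparison with the same DP libraries. Hist3h2a fell by 2.42 ± 0.31 (adjusted p = 6.48e-09), from 48.1, 71.5, 81.6 and 70.1 to 16.3, 7.99 and 12 FPKM. Hist1h1c fell by 1.89 ± 0.25 (adjusted p = 1.26e-08). Hist1h2bj (-0.42 ± 0.43, adjusted p = 0.586), Hist1h3c (-0.50 ± 0.41, adjusted p = 0.455) and Hist1h4i (-0.26 ± 0.46, adjusted p = 0.831) did not pass. In these CD8 SP libraries 9 of 22 replication genes and Slbp (by 0.68 ± 0.18, adjusted p = 0.00331) rose. These are the libraries in which Rps3a2 was near 0. Counting only members with under 50% shared stretches, 9 of 26 fell, and the part of read assignment in the result was not tested. Markers of dendritic cells (7 of 7, from sums of 3.80 to 26.5 to 68.0 to 501 FPKM) and of natural killer cells (4 of 6, from 0.264 to 8.28 to 114 to 133 FPKM) rose at this step, and their part in the result was not tested. The count was 7 with only these groups in the fit and 10 at a pseudocount of 0.1.

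In the induced cells no member fell at the step to CD4 SP. From iDP to iCD4 SP, 2 members rose and 0 fell (9.86% of all genes called), namely Hist1h2ak (by 1.84 ± 0.63, adjusted p = 0.0499) and the pseudogene Hist1h2aj. Hist1h2bc had 45.3, 58.0 and 32.5 FPKM in iDP and 41.4, 42.9, 46.6 and 42.0 in iCD4 SP. The difference between the induced and the natural step was itself called for 22 of 50 members (17.3% of all genes called, 9.65% up). In all of them the induced change minus the natural change was positive. Hist1h1a fell by 3.31 ± 0.51 in the natural step and differed by 1.06 ± 0.51 (adjusted p = 0.21) in the induced one, a difference of 4.37 ± 0.72 (adjusted p = 5.51e-06). For Hist1h2bc the difference of steps was 2.60 ± 0.41 (adjusted p = 2.2e-06) and for Hist1h3e 3.97 ± 0.84 (adjusted p = 0.00036). In the same difference 17 of 22 replication and 18 of 18 mitosis genes were called with a positive value too. The count was 9 with only these groups in the fit and 12 with library weights. The call of Hist1h2ak in iCD4 SP was lost without iDP replicate 1 (0.261) or 3 (0.0907) or iCD4 SP replicate 1 (0.0841), 2 (0.152) or 3 (0.0718), which left 1 called member.

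From iDP to iCD8 SP, 4 members (8%) fell and 1 (2%) rose. Of all genes 19.2% were called, 9.47% down and 9.73% up, so the share that fell was near that of all genes. The members that fell all have long transcripts. Hist1h1c went from 46.9, 51.4 and 37.2 FPKM to 10.8, 14.4, 9.77 and 11.7, and fell by 1.87 ± 0.25 (adjusted p = 2.79e-08). Hist1h2ac fell by 1.51 ± 0.38 (adjusted p = 0.0022) and Hist3h2a by 1.06 ± 0.31 (adjusted p = 0.00858), the latter not without iDP replicate 2 (adjusted p = 0.0806, 3 members called) or with only these groups in the fit (0.0975). At a pseudocount of 0.1 the adjusted p of Hist1h2ac was 0.0718. Hist1h1d (by 0.96 ± 0.33, adjusted p = 0.0317) completes the 4, which are the same genes that rose from iDN4 to iDP, a comparison with the same iDP libraries. Replication genes rose in 18 of 22 cases and Slbp rose by 0.82 ± 0.18 (adjusted p = 0.000537). Hist1h2ak rose by 1.69 ± 0.63 (adjusted p = 0.0492), a call lost without iDP replicate 1 (0.281) or 3 (0.0817) or iCD8 SP replicate 1 (0.156), 2 (0.105) or 3 (0.0749). The difference from the natural CD8 step was called for 3 members (7.34% of all genes), all with a positive induced minus natural change. It compares changes and not levels. For Hist3h2a, itself called lower in iDP than in DP, the difference of steps was 1.35 ± 0.44 (adjusted p = 0.0426). That call was lost with each of 9 libraries left out singly, with an adjusted p of up to 0.171. The count was 6 without DP replicate 2 and 1 without iDP replicate 3 or iCD8 SP replicate 1 or 2.

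**Figure D4:**
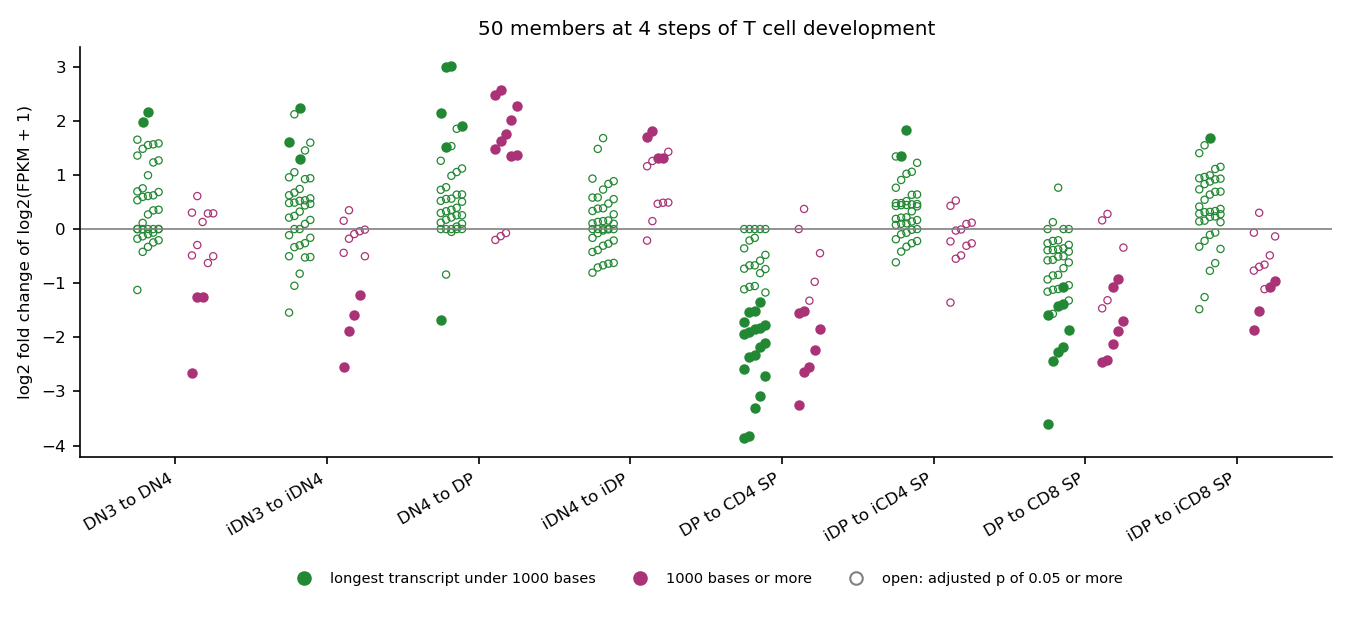
log2 differences of the 50 tested members (vertical axis, change of log2(FPKM + 1)) at 4 natural and 4 induced steps, filled where the adjusted p is under 0.05 and coloured by longest annotated transcript. The 26 filled points at DP to CD4 SP all lie below 0, and from iDP to iCD4 SP 2 filled points lie above it.

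Induced and natural cells of the same stage were compared at 9 stages. In marrow ETP, 2 members were higher and 6 lower in the induced cells (31.1% of all genes called). Hist1h1c had 12.6 and 13.5 FPKM in BM iETP against 130, 123 and 113 in BM ETP, a log2 difference of -3.13 ± 0.30 (adjusted p = 2.56e-13). Hist1h2bc had 17.4 and 27.9 against 255, 194 and 160 FPKM (-3.12 ± 0.35, adjusted p = 6.24e-11), and Hist1h2ac differed by -2.0 ± 0.45 (adjusted p = 0.000327). Libraries of both groups did not overlap for these 3 genes, which were picked from the called members. All 18 mitosis genes and Slbp (1.55 ± 0.22, adjusted p = 4.04e-08) were higher in the induced cells. All 8 B cell and 5 of 7 erythroid markers were higher in BM iETP, and 5 of 8 myeloid, 4 of 7 dendritic and 5 of 7 stem cell markers were lower, and their part in the result was not tested. Without BM iETP replicate 2, 5 members were called.

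Against their pro/pre-B origin, BM iETP had 12 members lower and 0 higher (15.5% of all genes called, 7.40% down), although 4 of 22 replication genes and 6 of 18 mitosis genes were higher. Hist1h1c stood at 75.5, 87.0 and 93.8 FPKM in pro/pre-B cells (-2.62 ± 0.30, adjusted p = 2.81e-10), and Hist1h2ac at 20.5, 15.4 and 14.4 against 0.896 and 1.59 (-2.99 ± 0.45, adjusted p = 7.99e-07). With only these 2 groups in the fit 0 members passed, with an adjusted p of 0.116 for Hist1h1c and 0.156 for Hist1h2ac. Without BM iETP replicate 1, 6 members were called, and without pro/pre-B replicate 4, 12. Of the markers, 6 of 7 for erythroid cells were higher in BM iETP (sums of 245 to 472 against 0.513 to 34.3 FPKM), as were 3 of 8 for myeloid cells, and 4 of 8 for B cells were lower, and their part in the result was not tested.

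In thymic ETP, 2 members were higher and 2 lower in induced cells (8.27% of all genes called, 4.49% up and 3.78% down). Hist3h2a had 38.4, 43.3 and 31.4 FPKM in Thy iETP against 15.3 and 14.9 in Thy ETP, Hist1h4i had 10.1, 16.9 and 26.2 against 64.7 and 48.6, and Hist1h3c had 1.55, 8.99 and 5.03 against 12.9 and 19.7. These 3, picked from the called members, did not overlap between the groups. Each call was lost when some single libraries were left out, with adjusted p from 0.0525 to 0.137 for Hist3h2a, 0.0794 to 0.274 for Hist1h4i and 0.0548 to 0.269 for Hist1h3c. Without Thy ETP replicate 1 or 2 or Thy iETP replicate 2 the count was 1, and without Thy iETP replicate 1 it was 2. With only these groups in the fit it was 0. Of the replication genes 14 of 22 and of the mitosis genes 14 of 18 were lower in the induced cells. So were 6 of 7 dendritic cell markers, with sums of 3.48 to 11.5 FPKM in Thy iETP against 1255 to 2220 in Thy ETP, and 3 of 9 T cell markers, and their part in the result was not tested.

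At the DN stages few members passed. In DN1, Hist1h2bc was higher in induced cells, with 26.2, 55.6, 41.7 and 52.9 FPKM against 22, 12.6 and 19.2 (1.23 ± 0.29, adjusted p = 0.00108), and Hist1h1e was lower (18.8% of all genes called, 9.90% up and 8.93% down). The call of Hist1h1e was lost without DN1 replicate 1 (0.314) or 2 (0.104) or iDN1 replicate 2 (0.0623) or 4 (0.0744), and without either DN1 replicate the count was 1. Without both of these and natural DN2 replicate 2, a choice made after seeing the data, it was 0. With only these groups in the fit both calls were lost, at an adjusted p of 0.0646 for Hist1h2bc and 0.159 for Hist1h1e, and 2 other members were called. Lower in iDN1 were 6 of 6 natural killer cell markers, with the sums given above, and 7 of 7 dendritic cell markers, with 16.3 to 92.3 against 690 to 948 FPKM, and their part in the result was not tested. Of the replication genes 9 of 22 and of the mitosis genes 12 of 18 were higher in iDN1. Rps3a2 was near 0 in the natural DN1 libraries, and the part of read assignment in the DN1 result was not tested. In DN2, 0 of 50 members passed limma's test (3 at an unadjusted p under 0.05) with 1.50% of all genes called (0.879% up and 0.626% down), and in DN4 0 of 50 (5 unadjusted) with 0.741% of all genes called (0.390% up and 0.350% down). In DN3, Hist1h1c was higher in induced cells, at 66.2, 75.3 and 108 FPKM against 18.6 and 36.9 (1.59 ± 0.30, adjusted p = 0.000455), and 3 further members passed (3.54% of all genes called, 2.35% up and 1.19% down). Without DN3 replicate 1 the adjusted p of Hist1h1c was 0.0706 and 2 members were called. The count was 2 without iDN3 replicate 1, 1 without iDN3 replicate 3 and 0 with only these groups in the fit.

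In DP cells, 9 members were lower and 0 higher in the induced cells (10.4% of all genes called, 4.83% up and 5.53% down). Among them were 3 of the 5 tested H1 genes. Hist1h1b had 0.522, 7.88 and 6.59 FPKM in iDP against 18.4, 24.3, 35.5 and 34.0 in DP (-2.59 ± 0.65, adjusted p = 0.00455), and Hist1h1e had 3.62, 3.62 and 0.98 against 5.2, 19.6, 15.3 and 27.5 (-2.16 ± 0.52, adjusted p = 0.00305). Among the others, Hist1h2bf (H2B) had 0.574, 1.26 and 0.32 against 12.3, 9.98, 6.15 and 7.64 FPKM (-2.54 ± 0.55, adjusted p = 0.00102). Of the replication genes 2 of 22 and of the replacement histones 4 of 10 were lower, H2afz with a difference of -0.58 ± 0.17 (adjusted p = 0.0225), and Slbp was at 268 against 262 FPKM. Without iDP replicate 1, 5 members were called, and Hist1h1b then had an adjusted p of 0.113. The count was 1 with only these groups in the fit, 3 with library weights and 4 with a pseudocount of 0.1, where Hist1h2bf had an adjusted p of 0.0782.

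In CD4 SP cells, 13 members were higher and 0 lower in the induced cells (26.4% of all genes called, 14.0% up). Hist1h4i (H4) had 59.6, 74.5, 67.2 and 82.1 FPKM in iCD4 SP against 19.2, 1.72 and 29.6 in CD4 SP (2.58 ± 0.46, adjusted p = 1.07e-05). Hist1h2bc had 41.4, 42.9, 46.6 and 42.0 against 10.4, 10.3 and 12.3 (1.88 ± 0.29, adjusted p = 5.78e-07). Hist1h1a had 12.4, 8.23, 10.9 and 6.98 against 2.47, 1.06 and 0 FPKM (2.43 ± 0.51, adjusted p = 0.000141). No library of one group overlapped the other for these 3 genes, which were picked from the called members. The called members were 2 H1, 3 H2A, 5 H2B, 1 H3 and 2 H4 genes, 4 with long and 9 with short transcripts. Beside them 20 of 22 replication genes, 18 of 18 mitosis genes, 5 of 10 replacement histones and Slbp (1.39 ± 0.18, adjusted p = 1.15e-08) were higher, and 1 replacement histone gene, H3f3b, was lower (-0.51 ± 0.12, adjusted p = 0.000408). The 6 natural killer cell markers summed to 83.2 to 177 FPKM in natural CD4 SP, with Ncr1 at 0, and to 0.0846 to 0.809 in iCD4 SP. Of these 6 markers 4 were lower in the induced cells, as were 3 of 7 dendritic cell markers, and their part in the result was not tested. With only these groups in the fit 7 members were called, and Hist1h4i was not among them (adjusted p = 0.14).

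In CD8 SP cells, 3 members were higher in the induced cells and 0 lower (10.6% of all genes called, 5.63% up and 5.01% down): Hist1h2bk, Hist1h4n and Hist1h4m. Hist1h2bk had 13.7, 15.2, 9.34 and 9.43 FPKM in iCD8 SP against 0, 5.46 and 7.19 in CD8 SP (1.76 ± 0.58, adjusted p = 0.037). These 3 share 74.2%, 85.6% and 89.8% of their stretches of 50 bases with other genes, and 0 of the 26 members with under 50% shared stretches were called. Rps3a2 was near 0 in the natural CD8 SP libraries, and the part of read assignment in the result was not tested. Lower in iCD8 SP were 5 of 6 natural killer cell markers, with sums of 0 to 7.93 against 114 to 133 FPKM, and 4 of 7 dendritic cell markers, with 11.6 to 38.3 against 68.0 to 501 FPKM, and their part in the result was not tested. Of the replication genes 5 of 22 and of the mitosis genes 4 of 18 were higher. The count was 0 without CD8 SP replicate 1 or iCD8 SP replicate 1 and 1 without CD8 SP replicate 3 or iCD8 SP replicate 2.

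**Figure D5:**
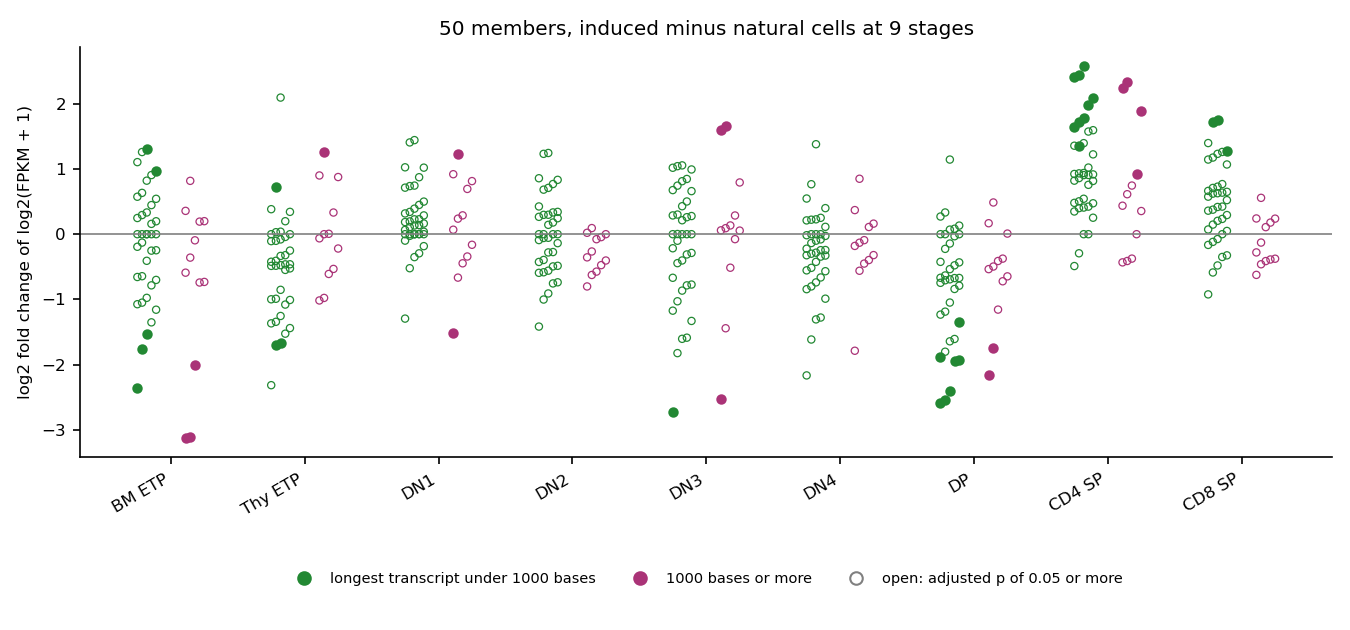
log2 differences of the 50 tested members between induced and natural cells (vertical axis, difference of log2(FPKM + 1)) at 9 stages, filled where the adjusted p is under 0.05. Filled points lie below 0 in DP (9 members) and above 0 in CD4 SP (13 members), and DN2 and DN4 have none.

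The 7 members that did not reach the level for a test were Hist1h2br, Hist1h1t, Hist1h2ba, Hist2h2aa2, Hist1h2bq, Hist1h2aa and Hist2h2aa1. None reached 1 FPKM in any library, and Hist1h2aa and Hist2h2aa1 were listed at 0 in all 75. For Hist2h2aa1 and Hist2h2aa2 all stretches of 50 bases are shared with other genes, which leaves their level undetermined here. Hist1h2ba, known from the testis, was above 0 in 2 libraries.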

How the data were processed

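The authors demultiplexed with bcl2fastq and used TopHat, Cufflinks 2.2.1, Cuffnorm and the mouse build NCBIM37, per the submitters' processing notes. Libraries were made with the Nextera XT kit, per the labels' protocols. The authors deposited FPKM values by Ensembl gene. The annotation and Cuffnorm's normalization method are not given in the sources used here. Groups were taken from the labels. Replicate 3 of the pro/pre-B group held the same values as replicate 1 in all 37980 genes and was counted as 1 sample with it.

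Symbols came from GENCODE vM21 (GRCm38), which matched 32916 identifiers. Coordinates, transcripts and stem-loops are from that annotation and promoters from RefSeq, not from the authors' build. Values were analysed as log2(FPKM + 1), so changes of low genes are understated. Genes at 1 FPKM or more in 2 or more libraries (17416) were fitted over all 24 groups with limma 3.58.1 in R 4.3.3, using a robust, trended variance prior and 51 residual degrees of freedom. Two-sided p-values were adjusted by Benjamini-Hochberg over all tested genes in each of 23 comparisons. On simulated data of 17416 genes the fit found, for DP, 49% of 2-fold and 97% of 4-fold changes, with 8.75% false calls. For DN3 these shares were 33%, 90% and 10.9%. In both comparisons, of induced with natural cells, the share of false calls was above the threshold of 0.05. Recovery was not split by level, so these shares need not hold for members of low level. Tables and plots were made with pandas 2.3.3, numpy 2.4.6 and matplotlib 3.10.9 in Python 3.11.15.

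Values in full were given for the 10 members of highest mean over groups. Per comparison the text could name up to 5 rises and 5 falls, the largest among members past the threshold with a mean of 5 FPKM or more in the higher group. List genes and Hoxb5 could be named too. Which of these were described was decided after seeing them. The members, lists and comparisons were chosen with earlier results of these data known. Alternatives were a pseudocount of 0.1, no filter, equal library totals, quantile normalization, library weights, a block for the replicate number, only the groups compared, and each library left out in turn.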

Additional observations from a re-analysis of the deposited data

Results flagged for a closer look

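Of 86 sets of 4 libraries tested, 6 had a value that lay far from the other 3, where chance flags about 1 in 20 groups. The summed level of mature B replicate 4 was 269.2 FPKM against 242.5 to 244.2. Hist1h2bc had 42.1 FPKM in iDN4 replicate 2 against 27.8 to 29.9, and Hist1h4d had 2.42 in iDN4 replicate 1 against 7.26 to 8.14. Hist1h3c had 0.862 FPKM in HSC replicate 3 and was listed at 0 in the others. Hist1h1b had 3.49 FPKM in HSC replicate 4 against 0.455 to 0.677, and 0.424 in MPP replicate 1 against 3.04 to 3.33.

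The step from DP to CD4 SP differed between induced and natural cells by 4.37 on the log2 scale for Hist1h1a, 3.97 for Hist1h3e, 3.45 for Hist1h1b, 3.36 for Hist1h2bf and 3.22 for Hist3h2ba, each by limma's test of that difference. In each the induced change minus the natural change was positive. With only these groups in the fit the adjusted p was 0.0503 for Hist1h3e, 0.0953 for Hist1h1b and 0.0505 for Hist3h2ba. The step to CD8 SP differed by 3.11 for Hist1h4j, 2.59 for Hist1h2bf and 1.35 for Hist3h2a. The call was lost in 3 of 21 alternatives for Hist1h4j, 10 of 21 for Hist1h2bf and 15 of 21 for Hist3h2a.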

How the results depend on the processing

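Of 78 fold changes of members that the naming rule admits, each under several alternatives (1108 in all), 0 reversed, 913 kept their call and 195 lost it, and 27 kept it under every alternative run. Fitting only the groups compared lost 46 of 78 calls, a pseudocount of 0.1 lost 24, library weights 13, no filter 5, quantile normalization 4, equal totals 2 and the replicate block 1.

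Counts of called members moved as follows. With only the groups compared in the fit: 0 of 4 for Thy ETP, 0 of 4 for DN3, 1 against 0 for DN4, 1 of 9 for DP, 7 of 13 for CD4 SP and 1 of 3 for CD8 SP (induced against natural); 1 against 0 for MPP, 9 of 19 for mature B, 0 of 5 for DN3 to DN4, 6 of 15 for DN4 to DP, 7 of 26 for DP to CD4 SP, 7 of 16 for DP to CD8 SP, 0 of 2 for iDP to iCD4 SP and 0 of 12 for BM iETP against pro/pre-B; 9 of 22 and 0 of 3 for the differences of the CD4 and CD8 steps; for DN1 2 members were called as before, but not the same 2. With library weights: 1 of 4 (DN3), 4 against 0 (DN4), 3 of 9 (DP), 5 against 3 (CD8 SP), 2 of 5 (DN3 to DN4), 14 of 26 (DP to CD4 SP), 12 against 7 (iDN3 to iDN4), 7 against 4 (iDN4 to iDP), 1 of 2 (iDP to iCD4 SP), 12 of 22 and 0 of 3 (differences of steps). With a pseudocount of 0.1: 2 of 4 (Thy ETP), 2 of 4 (DN3), 1 against 0 (DN4), 4 of 9 (DP), 1 of 3 (CD8 SP), 10 of 16 (DP to CD8 SP), 1 of 2 (iDP to iCD4 SP), 7 of 12 (BM iETP against pro/pre-B) and 1 of 3 (difference of the CD8 steps). Quantile normalization gave 1 for DN4 and for iDP to iCD4 SP, no filter 1 for the latter, and equal totals 8 against 4 for iDN4 to iDP. Leaving out natural DN1 replicates 1 and 2 and DN2 replicate 2, chosen after seeing the data, gave 0 of 2 for DN1. The cause of these moves was not tested. The fits of only the groups compared hold fewer libraries.

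Each library left out in turn gave 0 to 1 (MPP), 17 to 21 (mature B), 6 to 12 (BM iETP against pro/pre-B), 5 to 7 (BM ETP), 1 to 3 (Thy ETP), 1 to 3 (DN1), 0 to 0 (DN2, DN4), 1 to 4 (DN3), 1 to 5 (DN3 to DN4), 10 to 15 (DN4 to DP), 0 to 1 (difference of the DN4 to DP steps), 5 to 10 (DP), 20 to 25 (DP to CD4 SP), 11 to 16 (DP to CD8 SP), 17 to 24 and 1 to 6 (differences of the CD4 and CD8 steps), 10 to 17 (CD4 SP), 0 to 3 (CD8 SP), 4 to 8 (iDN3 to iDN4), 4 to 7 (iDN4 to iDP), 1 to 2 (iDP to iCD4 SP) and 3 to 6 (iDP to iCD8 SP).

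Deviations of same-numbered libraries correlated weakly, from -0.04 to 0.13 over 52 pairs. Pairs with different numbers were not compared, so this check cannot tell whether a number marks a shared animal or day. The replicate block gave 1 against 0 for DN4 and left every other count within 1.5 times. Depth limits low members: in the shallowest library 10 FPKM of a 500-base transcript is 4.89 fragments.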

Other observations

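In DP, Hist3h2ba, an H2B gene on chromosome 11, had 28.1, 8.30, 40.4 and 41.3 FPKM, and the highest value in any other group was 12.2 in Thy iETP replicate 1. Hist3h2a, on the same chromosome, had its highest mean in DP as well.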
